A study of Homo sapiens with 8 samples.

Results

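The PGC-1 coactivators and the regulators of mitochondrial transcription that work with them were followed as a set of 10 genes in A549 cells, a human lung adenocarcinoma line. The set was listed by gene name: PPARGC1A, PPARGC1B, PPRC1, NRF1, GABPA, GABPB1, TFAM, TFB1M, TFB2M and POLRMT. All probe sets that the platform annotation ties to 1 of these genes alone were taken, which gave 31 of the 41091 single-gene probe sets on the array. Of these, 19 had a mean log2 signal at or above the filter of 4.80, the 40th percentile of single-gene probe sets, and 12 lay below it. The brightest probe set stood for each gene in a fit over 13584 genes, in which 9 of the 10 genes were tested. PPARGC1A had no probe set above the filter and was read from a second fit over all 41091 probe sets without a filter. NRF1 here is nuclear respiratory factor 1.

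The 4 groups held 2 arrays each, called biological replicates in the labels. SRC-1 siRNA was combined with glucose and with glucose-free medium, and so was control siRNA. All cells were transfected with a small interfering RNA (siRNA), either against steroid receptor coactivator 1 (SRC-1, encoded by NCOA1) or a control, and then spent 36 h in 10% dialyzed serum. They were next given DMEM that held glucose or lacked it, again with 10% dialyzed serum, for a time not given in the sources used here. The series asks how SRC-1 loss alters RNA levels in either medium.

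PGC-1 coactivators bind no DNA themselves. They dock on nuclear receptors and on nuclear respiratory factors, and they recruit histone acetyltransferases and p160 coactivators such as SRC-1 to the promoter. The nuclear respiratory factors switch on respiratory chain genes and the genes of the mitochondrial transcription machinery, whose products enter the organelle and transcribe its own DNA.

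The targeted mRNA was lower in every array of SRC-1 siRNA. The brightest NCOA1 probe set read 5.47 and 5.18 with SRC-1 siRNA and glucose, against 8.60 and 8.42 with control siRNA and glucose, on the log2 scale. Without glucose it read 5.22 and 5.09 with SRC-1 siRNA, against 8.34 and 8.24 with control siRNA. All 9 markers of A549 epithelium stood at or above the 78.5th percentile of signal, and the 8 markers of leukocytes, endothelium and fibroblasts stood between the 10.4th and the 76.6th percentile. The 5 markers of alveolar type II cells, among them the surfactant gene SFTPC and NKX2-1, lay within that range, between the 40.5th and the 75.1st percentile. The 3' minus 5' signal of GAPDH, a measure of RNA integrity, was 0.139 to 0.172 with glucose and 0.123 to 0.141 without. That of actin was 0.513 to 0.643 with glucose and 0.414 to 0.535 without. The media overlapped on both measures when the siRNAs were pooled. Under SRC-1 siRNA alone GAPDH did not overlap, at 0.154 and 0.139 with glucose against 0.126 and 0.131 without. Under control siRNA alone it did not overlap either, at 0.163 and 0.172 against 0.123 and 0.141. Actin overlapped under SRC-1 siRNA and was narrowly higher with glucose under control siRNA. The part of these differences in the results below was not tested. The number of arrays limits the precision, with a median standard error (SE) of 0.083 for a log2 difference between 2 groups. In bulk RNA of this kind, fewer cells of a type and less RNA per cell cannot be told apart.

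Averaged over both siRNAs, 5 genes were higher with glucose than without it (PPARGC1B, NRF1, GABPA, TFAM and POLRMT), 1 was lower (TFB1M) and 3 were not called (PPRC1, TFB2M and GABPB1, each read on its brightest probe set) at an adjusted p of 0.05 in limma. In this comparison 55.7% of all genes tested were called, 29.5% higher and 26.2% lower, so 6 of 9 lies near the share of all genes. The median log2 difference of the 9 genes was 0.27, against -0.00035 over all genes, and the median size regardless of sign was 0.30, against 0.20. These calls and medians rest on brightest probe sets. With the mean of each gene's probe sets above the filter, NRF1 (0.028), GABPA (0.099) and POLRMT (0.12) were not called. GABPB1 was then called lower (-0.52), and the calls of PPARGC1B, TFAM and TFB1M stayed. Read on brightest probe sets, PPARGC1B was the 1 gene of the set to pass 1.5-fold. Of the other probe sets, GABPB1 206173_x_at (2.16-fold lower) and TFAM 238443_at (1.57-fold higher, below the filter) also passed it. With SRC-1 siRNA 5 of the 9 genes were called (4 higher, 1 lower), where 44.7% of all genes were called, 24.6% higher and 20% lower. With control siRNA 6 were called (5 higher, 1 lower), where 45.2% of all genes were called, 23.6% higher and 21.6% lower. The gene that parted these counts was POLRMT, whose adjusted p was 0.053 with SRC-1 siRNA and 0.047 with control siRNA.

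These counts within 1 siRNA changed when 1 array was left out. Such a fit has 1 array in a group and is less precise, so a lost call need not mean that 1 array carried it. With SRC-1 siRNA, 3 genes were called when the first array with glucose or the first without it was left out. With control siRNA, 2 genes were called without the first glucose-free array, and 3 without either array with glucose. The count averaged over both siRNAs was 6 with any 1 array left out. The 4 arrays with glucose did not overlap the 4 without for the same 6 genes, where 53.9% of all genes had groups apart, 28.6% higher and 25.3% lower.

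**Figure D1:**
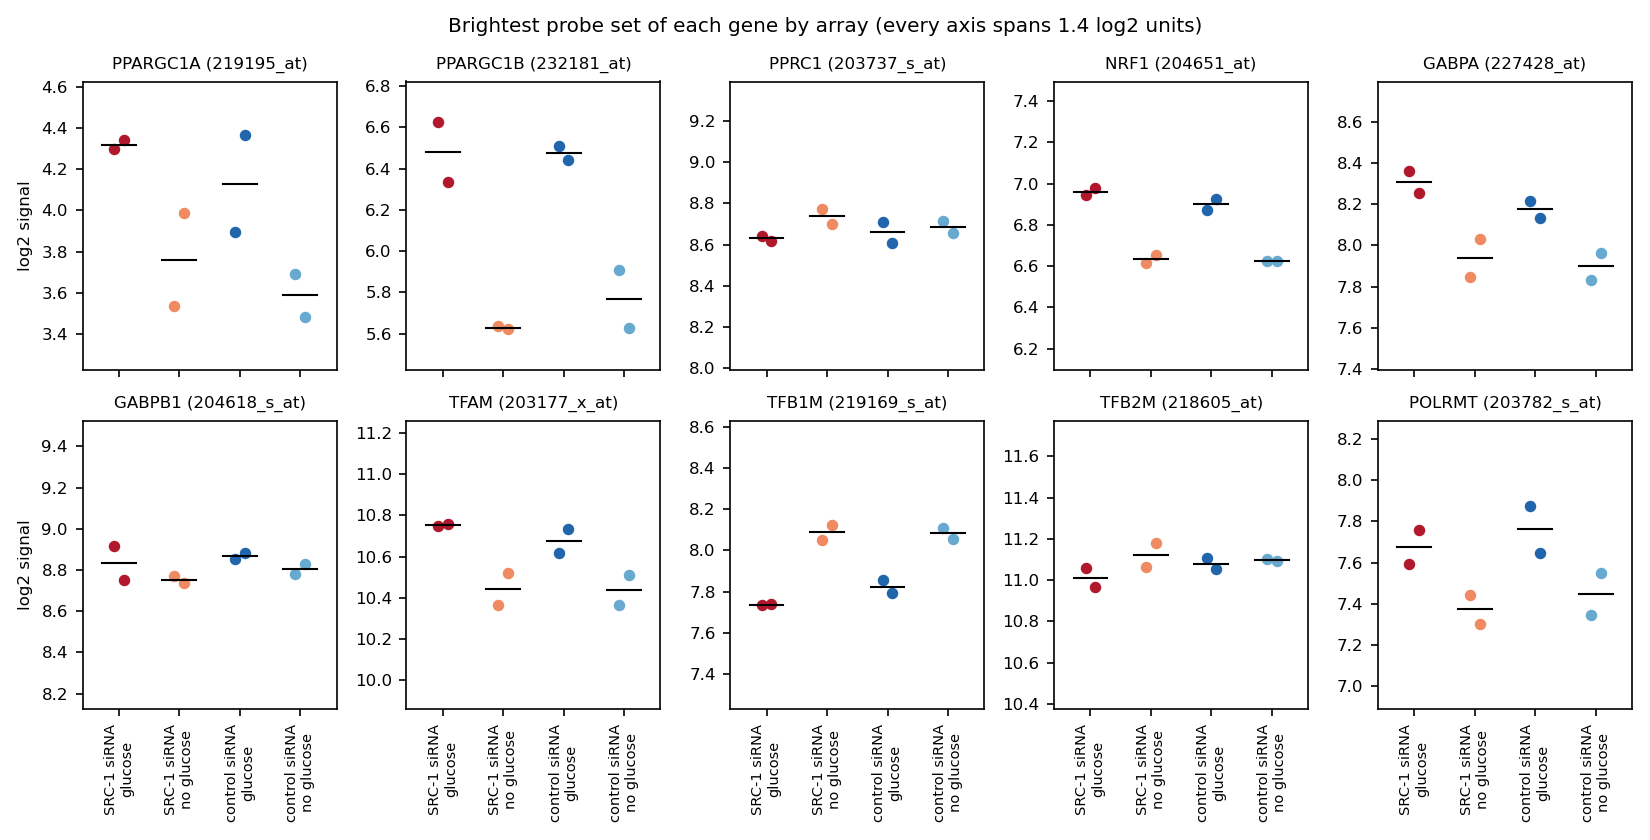
Log2 signal of the brightest probe set of each of the 10 genes in the 8 arrays (points) with group means (bars), each panel spanning an equal range on its vertical axis. In PPARGC1B the 4 arrays with glucose lay between 6.34 and 6.63 and the 4 without lay between 5.62 and 5.91, while PPRC1, GABPB1 and TFB2M overlapped.

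Of the PGC-1 coactivators, PPARGC1B showed the widest gap. This gene encodes PGC-1beta, a coactivator of mitochondrial biogenesis and fatty acid oxidation. With glucose its brightest probe set (232181_at) read 6.63 and 6.34 under SRC-1 siRNA and 6.51 and 6.44 under control siRNA. In glucose-free medium it read 5.64 and 5.62 under SRC-1 siRNA and 5.91 and 5.63 under control siRNA. Every array with glucose lay above every array without it. The difference was 0.78 ± 0.082 (SE) on the log2 scale, or 1.72-fold higher with glucose (adjusted p = 5.90e-05), and its size stood at the 92.0th percentile of all genes tested. It was 0.85 ± 0.12 with SRC-1 siRNA and 0.71 ± 0.12 with control siRNA. A second PPARGC1B probe set (1553639_a_at) was also higher with glucose, by 0.41 ± 0.081 (adjusted p = 0.00374 in the probe-set fit). The remaining 2 were not called, at 0.048 ± 0.062 (1563943_at) and -0.073 ± 0.090 (1555282_a_at, below the filter).

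PPARGC1A encodes PGC-1alpha, the founding coactivator of the family, which is induced in many tissues by fasting, cold and exercise. Both of its probe sets were dim in these cells, at the 26.3rd and the 16.8th percentile of signal. The brighter one (219195_at) read 4.30 and 4.34 with glucose under SRC-1 siRNA and 3.89 and 4.37 with glucose under control siRNA. The glucose-free arrays read 3.53 and 3.99 under SRC-1 siRNA and 3.69 and 3.48 under control siRNA. The glucose-free SRC-1 siRNA array at 3.99 lay above the control siRNA array with glucose at 3.89, so the media overlapped. The averaged difference was 0.55 ± 0.13 (adjusted p = 0.00915, probe-set fit), and it was not called with SRC-1 siRNA (adjusted p = 0.057) or with control siRNA (adjusted p = 0.061). The second probe set (1569141_a_at) differed by -0.086 ± 0.057 and was not called (adjusted p = 0.307). Without detection calls it is unknown how far either signal lay above background, and differences between dim signals may be compressed.

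PPRC1 encodes the PGC-1-related coactivator PRC, which responds to serum and growth signals. Its single probe set (203737_s_at) read 8.64 and 8.62 under SRC-1 siRNA and 8.71 and 8.61 under control siRNA with glucose. Without glucose the signals were 8.77 and 8.70 under SRC-1 siRNA and 8.71 and 8.66 under control siRNA. The media overlapped, and the difference of -0.066 had a 95% interval of -0.18 to 0.045 (adjusted p = 0.282).

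NRF1, a transcription factor that binds a GC-rich palindrome in promoters of respiratory genes, was modestly higher with glucose on its brightest probe set. That probe set (204651_at) read 6.94 and 6.98 under SRC-1 siRNA and 6.87 and 6.93 under control siRNA with glucose. Its glucose-free signals were 6.61 and 6.66 under SRC-1 siRNA and 6.63 and 6.62 under control siRNA. The media did not overlap, and the SD of 2 replicates lay between 0.0024 and 0.036. The difference was 0.30 ± 0.044, or 1.23-fold (adjusted p = 4.24e-04). The other 4 NRF1 probe sets were not called and ranged between -0.13 and 0.25. The mean of the NRF1 probe sets above the filter differed by 0.028 (adjusted p = 0.668), so the call rests on 1 probe set of 5. The probe set at 0.25 (243189_at) was called, at 0.37 (adjusted p = 0.0127, probe-set fit), when the first array of SRC-1 siRNA with glucose was left out.

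GABPA and GABPB1 encode the subunits of GA-binding protein, also named nuclear respiratory factor 2, an ETS family factor in which GABPA binds DNA and GABPB1 carries the activation domain. GABPA (227428_at) read 8.36 and 8.25 under SRC-1 siRNA and 8.22 and 8.13 under control siRNA with glucose. Without glucose it read 7.84 and 8.03 under SRC-1 siRNA and 7.83 and 7.97 under control siRNA. The media did not overlap, and the difference was 0.32 ± 0.062, or 1.25-fold higher with glucose (adjusted p = 0.00212). The second GABPA probe set (210188_at) differed by -0.12 ± 0.066 and was not called, and the mean of both differed by 0.099 (adjusted p = 0.0776), which ended the call.

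The 2 probe sets of GABPB1 went separate ways. The brighter one (204618_s_at) read 8.91 and 8.75 under SRC-1 siRNA and 8.85 and 8.88 under control siRNA with glucose. Arrays without glucose read 8.77 and 8.73 under SRC-1 siRNA and 8.78 and 8.83 under control siRNA. The media overlapped, and the difference of 0.071 ± 0.061 was not called in the probe-set fit (adjusted p = 0.438). The other (206173_x_at) read 8.005 and 8.08 under SRC-1 siRNA and 7.83 and 8.06 under control siRNA with glucose. In glucose-free medium it read 9.01 and 9.07 under SRC-1 siRNA and 9.21 and 9.13 under control siRNA. All 4 arrays with glucose thus lay far below the 4 without on this probe set. The difference was -1.11 ± 0.069, or 2.16-fold lower with glucose (adjusted p = 5.05e-06), and its size stood at the 98.0th percentile of all single-gene probe sets. It was -0.995 ± 0.098 with SRC-1 siRNA and -1.22 ± 0.098 with control siRNA, and the interaction of 0.23 ± 0.14 was not called (adjusted p = 1.00). When the mean of both probe sets stood for the gene, GABPB1 was called lower with glucose, at -0.52 (adjusted p = 2.06e-05).

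The contrast between these probe sets was also read within each array, a closer look chosen after the values were seen. The 206173_x_at signal minus the 204618_s_at signal was -0.91 and -0.67 under SRC-1 siRNA and -1.02 and -0.82 under control siRNA with glucose. Without glucose it was 0.24 and 0.33 under SRC-1 siRNA and 0.43 and 0.30 under control siRNA. The array also carries probe sets named for 2 RNAs of the same locus, the antisense RNA GABPB1-AS1 and the intronic transcript GABPB1-IT1. Averaged over both siRNAs, all 3 GABPB1-IT1 probe sets were lower with glucose, at -0.45 ± 0.061 (205510_s_at), -0.53 ± 0.13 (205511_at) and -0.38 ± 0.11 (236164_at, below the filter). Of all single-gene probe sets 17.3% were called higher and 15.9% lower in this comparison. The media were apart on the first of them and overlapped on the others. The first was called under both siRNAs. The other 2 were called with SRC-1 siRNA (-0.72 for 205511_at and -0.79 for 236164_at) and not with control siRNA, where they differed by -0.34 and by 0.035. Of the 6 GABPB1-AS1 probe sets, 3 were higher with glucose, by 0.51 ± 0.063 (1568983_a_at), 0.42 ± 0.058 (231979_at, below the filter) and 0.58 ± 0.089 (235274_at). Of these, 231979_at differed by 0.15 with SRC-1 siRNA, where it was not called, and by 0.69 with control siRNA. A further one was lower, at -0.48 ± 0.098 (227406_at), and the remaining 2, below the filter, were not called. Which transcripts each probe set reads was not tested.

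**Figure D2:**
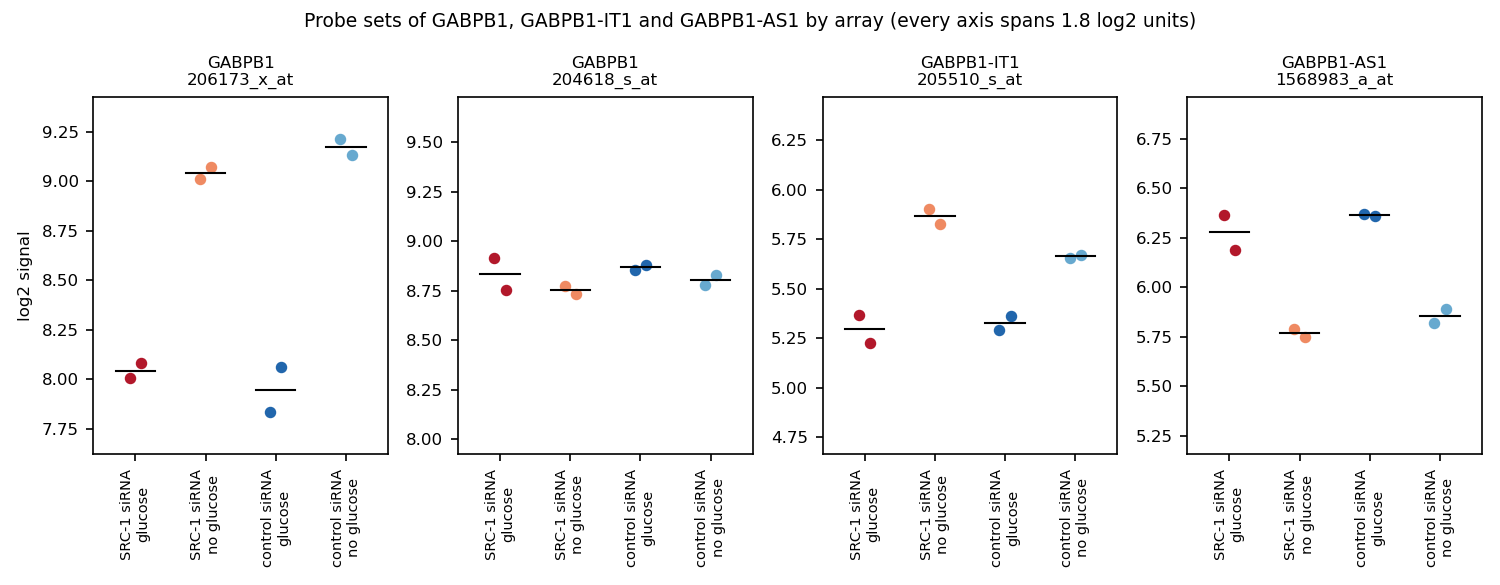
Log2 signal in the 8 arrays (points, with group means as bars) of both GABPB1 probe sets and of 1 probe set each of GABPB1-IT1 and GABPB1-AS1, on vertical axes of equal span. The 206173_x_at signal lay at 7.83 to 8.08 with glucose and at 9.01 to 9.21 without, whereas 204618_s_at overlapped between media.

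The mitochondrial transcription machinery was examined next. TFAM bends and packages mitochondrial DNA and recruits the polymerase, TFB2M opens the promoter, and POLRMT is the RNA polymerase of the organelle. TFB1M is a relative of TFB2M that methylates the small mitochondrial ribosomal RNA. NRF1 and GA-binding protein are known regulators of these genes, so the bases just upstream of each start are shown here. They are the 250 bases before the annotated start from RefSeq (GRCh38.p14), 5′ to 3′ on the strand of the gene, at chr10:58385160-58385409 on the plus strand for TFAM and chr19:633538-633787 on the minus strand for POLRMT. The TFB1M window is chr6:155314485-155314734 and the TFB2M window chr1:246566262-246566511, both on the minus strand. Capitals mark matches on either strand to GCNTGCGC, the core of the NRF1 palindrome with 1 base left free, and to the ETS core CGGAAG.
TFAM: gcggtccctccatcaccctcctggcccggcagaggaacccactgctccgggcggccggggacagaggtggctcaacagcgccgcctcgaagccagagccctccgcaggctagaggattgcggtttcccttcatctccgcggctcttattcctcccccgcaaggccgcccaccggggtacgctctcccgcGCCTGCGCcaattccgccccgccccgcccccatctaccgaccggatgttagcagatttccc
POLRMT: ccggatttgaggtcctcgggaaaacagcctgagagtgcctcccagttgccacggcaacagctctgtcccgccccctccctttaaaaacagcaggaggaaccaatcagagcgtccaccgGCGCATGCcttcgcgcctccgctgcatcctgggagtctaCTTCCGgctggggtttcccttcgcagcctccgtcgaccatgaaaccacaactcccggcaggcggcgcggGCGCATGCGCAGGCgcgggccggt
TFB1M: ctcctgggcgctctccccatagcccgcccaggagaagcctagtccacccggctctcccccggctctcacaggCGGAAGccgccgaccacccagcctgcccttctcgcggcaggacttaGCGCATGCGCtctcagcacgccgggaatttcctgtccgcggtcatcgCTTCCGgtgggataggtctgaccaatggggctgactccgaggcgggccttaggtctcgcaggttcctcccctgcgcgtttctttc
TFB2M: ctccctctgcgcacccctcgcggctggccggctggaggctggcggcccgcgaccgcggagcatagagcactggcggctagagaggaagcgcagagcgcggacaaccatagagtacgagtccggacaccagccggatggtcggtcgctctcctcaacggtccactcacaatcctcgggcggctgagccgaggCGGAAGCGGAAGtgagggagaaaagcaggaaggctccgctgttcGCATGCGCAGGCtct

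The NRF1 core with a free base stood 61 bases before the TFAM start, 132 and 130 before the TFB1M start and 15 and 11 before the TFB2M start, counted from the first base of each match. POLRMT held it at 132, 24, 22 and 18 bases. Matches at neighbouring positions share bases. Of 35116 windows of this length in the RefSeq table, 10.4% held GCNTGCGC. The stricter GCATGCGC, a special case of it, was found in 2.63% of windows and in those of TFB1M, TFB2M and POLRMT. The GA-binding protein motif CCGGAAG, found in 8.52% of windows, stood 85 bases before the TFB1M start, 93 before the POLRMT start and 66 before the GABPA start. The shorter CGGAAG, which lies within it and occurs in 16.5% of windows, stood 59 and 53 bases before the TFB2M start and also at 178 in TFB1M. Of the 10 genes 9 were matched in the table and NRF1 was not. The windows of PPARGC1A (2 starts), PPARGC1B, PPRC1 and GABPB1 held no match to these motifs. These are matches of letters only. TFAM and POLRMT, with a match, were higher with glucose, TFB1M, also with a match, was lower, and TFB2M was not called.

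TFAM was higher with glucose on each of its 4 probe sets. The brightest (203177_x_at) read 10.75 and 10.76 under SRC-1 siRNA and 10.62 and 10.73 under control siRNA with glucose. The glucose-free arrays read 10.36 and 10.52 under SRC-1 siRNA and 10.37 and 10.51 under control siRNA. The media did not overlap, and the difference was 0.27 ± 0.059, or 1.21-fold (adjusted p = 0.00390). The others differed by 0.33 ± 0.064 (203176_s_at), 0.31 ± 0.058 (208541_x_at) and 0.65 ± 0.12 (238443_at, below the filter), each without overlap between media. All 4 were called in the probe-set fit, where the brightest fell to 0.24 (adjusted p = 0.0503) without the first glucose-free array of control siRNA. TFAM was thus the gene with several probe sets for which all passed the test in 1 direction, averaged over both siRNAs. With control siRNA alone its gene-level call was marginal (adjusted p = 0.0473 in limma). That call was lost with no filter, median centring, array weights or only the groups compared (adjusted p 0.051 to 0.085). Calls under either siRNA were also lost in some fits with 1 array left out, which are less precise. In such fits the difference lay between 0.17 and 0.31 with control siRNA and between 0.23 and 0.39 with SRC-1 siRNA. With _s_at and _x_at probe sets left out, TFAM had no probe set above the filter.

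POLRMT was higher with glucose on 1 of its 3 probe sets. That probe set (203782_s_at) read 7.59 and 7.76 under SRC-1 siRNA and 7.88 and 7.65 under control siRNA with glucose. Without glucose the signals were 7.44 and 7.30 under SRC-1 siRNA and 7.35 and 7.55 under control siRNA. The media were apart, by the narrow step between 7.55 and 7.59, and the difference was 0.31 ± 0.078, or 1.24-fold (adjusted p = 0.00882). The others differed by -0.063 ± 0.058 (203783_x_at) and -0.21 ± 0.083 (228616_at, below the filter) and were not called. The dim one was called lower, at -0.28 (adjusted p = 0.0473, probe-set fit), without the first glucose-free array of control siRNA. The mean of the 2 probe sets above the filter differed by 0.12 (adjusted p = 0.0772), which ended the call. In the probe-set fit the call was also lost without any 1 of 4 arrays, with differences of 0.25 to 0.27: the first glucose-free array or the first array with glucose of control siRNA, and the second of either medium under SRC-1 siRNA.

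TFB1M was the gene called lower with glucose when each gene was read on its brightest probe set, a choice that left out the lower GABPB1 and TFB2M probe sets. Its brightest probe set (219169_s_at) read 7.73 and 7.74 under SRC-1 siRNA and 7.86 and 7.79 under control siRNA with glucose. Its glucose-free signals were 8.05 and 8.13 under SRC-1 siRNA and 8.11 and 8.06 under control siRNA. The media did not overlap, and the difference was -0.31 ± 0.046, or 1.24-fold lower with glucose (adjusted p = 5.22e-04). A second TFB1M probe set (228075_x_at) was lower, at -0.34 ± 0.056, and 2 dim ones were not called.

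TFB2M, at the 96.4th percentile of signal, did not pass the test on its brightest probe set (218605_at). It read 11.06 and 10.97 under SRC-1 siRNA and 11.11 and 11.05 under control siRNA with glucose, against 11.07 and 11.18 under SRC-1 siRNA and 11.10 and 11.09 under control siRNA without glucose. The media overlapped, and the difference of -0.064 had a 95% interval of -0.18 to 0.050 (adjusted p = 0.308). Of 3 dim TFB2M probe sets, 1566931_at was called lower with glucose, at -0.29 ± 0.076 (adjusted p = 0.0166, probe-set fit). That call was lost without the first glucose-free array of control siRNA (-0.21, adjusted p = 0.0513) or of SRC-1 siRNA (-0.26, adjusted p = 0.0606). Another dim one (1566932_x_at) was called lower, at -0.22 (adjusted p = 0.0498), without that first glucose-free array of SRC-1 siRNA.

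Over all 31 probe sets, 14 were called for glucose averaged over both siRNAs, 10 higher and 4 lower, where 33.2% of all single-gene probe sets were called, 17.3% higher and 15.9% lower. With SRC-1 siRNA 11 were called, 8 higher and 3 lower, where 23.4% of all were called, 12.6% higher and 10.8% lower. With control siRNA 8 were called, 5 higher and 3 lower, where 24.1% of all were called, 12.4% higher and 11.7% lower. With SRC-1 siRNA, 3 and 4 were called without the first or the second array with glucose, and 5 and 6 without the first or the second glucose-free array. With control siRNA, 3 were called without either glucose-free array or the second array with glucose. The media were apart on 14 probe sets, 9 higher and 5 lower with glucose, where 34.9% of all were apart, 18.1% higher and 16.8% lower. These 14 and the 14 called on average were not the same: the brighter PPARGC1A probe set was called and overlapped, and the dimmer one was apart and not called. Probe sets of 8 of the 10 genes were split between called and not called. TFAM was called on 4 of 4 probe sets, PPRC1 on 0 of 1.

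**Figure D3:**
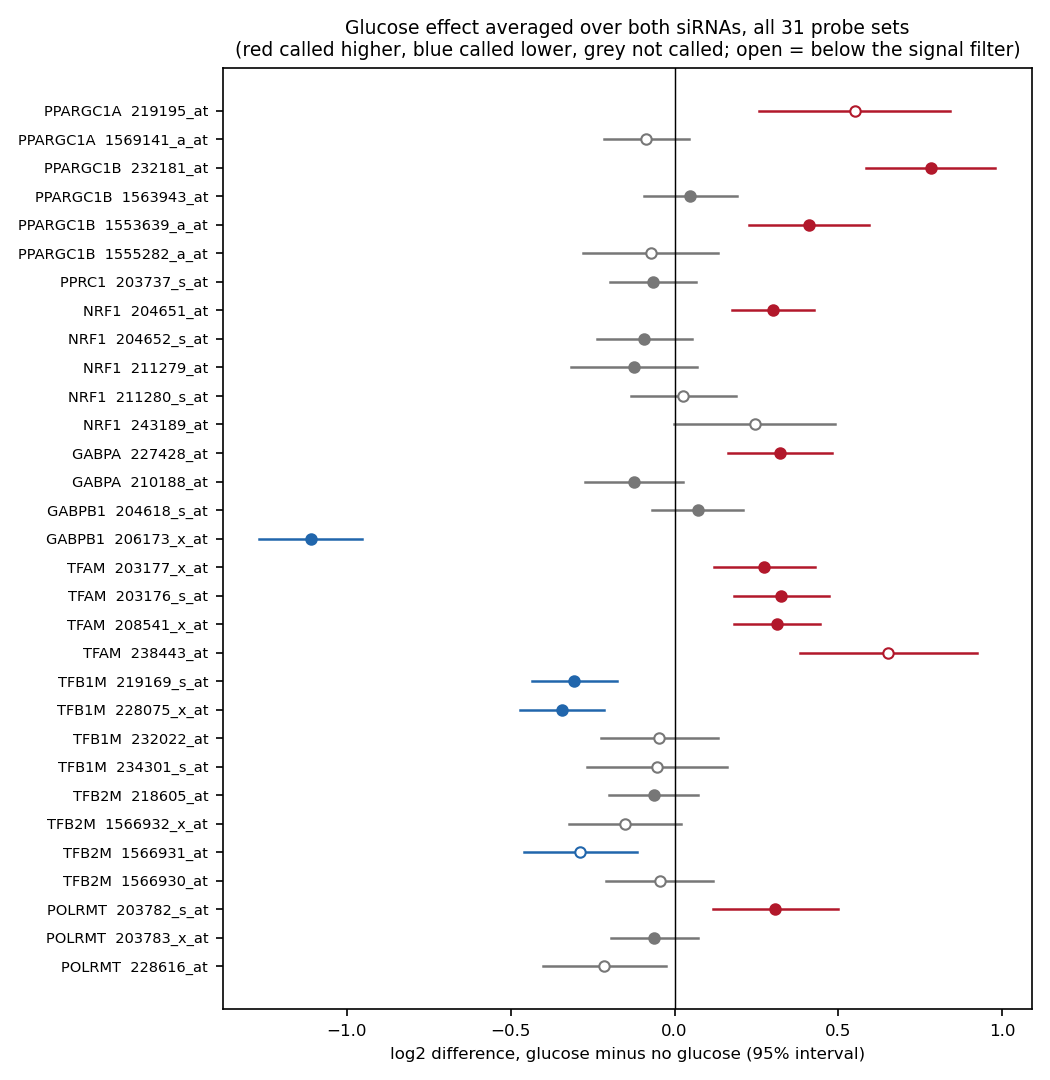
Log2 difference, glucose minus no glucose, averaged over both siRNAs, for the 31 probe sets (points) with 95% intervals (bars); red and blue mark probe sets called higher and lower, and open points lie below the signal filter. The GABPB1 probe set 206173_x_at stands farthest out at -1.11, and the 4 TFAM probe sets all lie above 0.

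No gene of the set was called for SRC-1 siRNA. With glucose 0 of 9 genes passed the limma test, where 0.00736% of all genes did (1 gene, the targeted NCOA1). Without glucose 0 of 9 passed, where 0.0221% did (3 genes, NCOA1 among them). Averaged over both media 0 of 9 passed, where 0.0294% did, and 0 of 31 probe sets passed, where 0.0146% did. In either medium alone 0 of 31 probe sets passed, where 0.00973% did, and at an unadjusted p of 0.05 there was 1 with glucose (NRF1 243189_at, -0.36 ± 0.15) and 0 without. The 4 SRC-1 siRNA arrays overlapped the 4 control siRNA arrays for all 9 genes, where 0.876% of genes were apart. At an unadjusted p of 0.05 the counts over all genes were 781 with glucose, 434 without and 674 averaged, and 0 of the 9 genes in each. The averaged differences, SRC-1 siRNA minus control siRNA, ran between -0.080 for POLRMT and 0.085 for GABPA. The 95% intervals of these averaged differences ran between -0.26 and 0.23, so larger averaged differences lie outside the intervals of these 9 probe sets. Within 1 medium the intervals of the 9 genes were wider, reaching 0.33 with glucose and -0.40 without. Averaged over both media, the interval of the brighter PPARGC1A probe set ran from -0.11 to 0.47. That of NRF1 243189_at ran from -0.44 to 0.054.

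By gene, PPARGC1B differed by 0.0057 with glucose (95% interval -0.26 to 0.27) and by -0.14 without glucose (-0.40 to 0.12) between SRC-1 siRNA and control siRNA. TFAM differed by 0.077 with glucose (-0.11 to 0.27) and by 0.0032 without (-0.19 to 0.20). NRF1 differed by 0.061 with glucose (-0.081 to 0.20) and by 0.010 without (-0.13 to 0.15). None of these passed the test. The brighter PPARGC1A probe set had group means of 4.32 with SRC-1 siRNA and 4.13 with control siRNA in glucose, and of 3.76 with SRC-1 siRNA and 3.59 with control siRNA without glucose. Its averaged difference was 0.18 ± 0.13 (adjusted p = 0.986, probe-set fit). The dim NRF1 probe set 211280_s_at was the 1 of 31 whose 4 SRC-1 siRNA arrays lay above all 4 control siRNA arrays, by 0.14 ± 0.070 (adjusted p = 0.945), where 1.47% of all probe sets were apart.

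The effect of glucose was also compared between the siRNAs. The interaction was called for 0 of 9 genes and for 0% of all genes tested, with 465 of all genes and 0 of the 9 at an unadjusted p of 0.05. The interaction values, the glucose difference with SRC-1 siRNA minus that with control siRNA, ran between -0.093 for TFB2M and 0.15 for PPARGC1B. Their SE lay between 0.088 and 0.16, so a difference in response of this size was not detectable with 2 arrays per group.

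**Figure D4:**
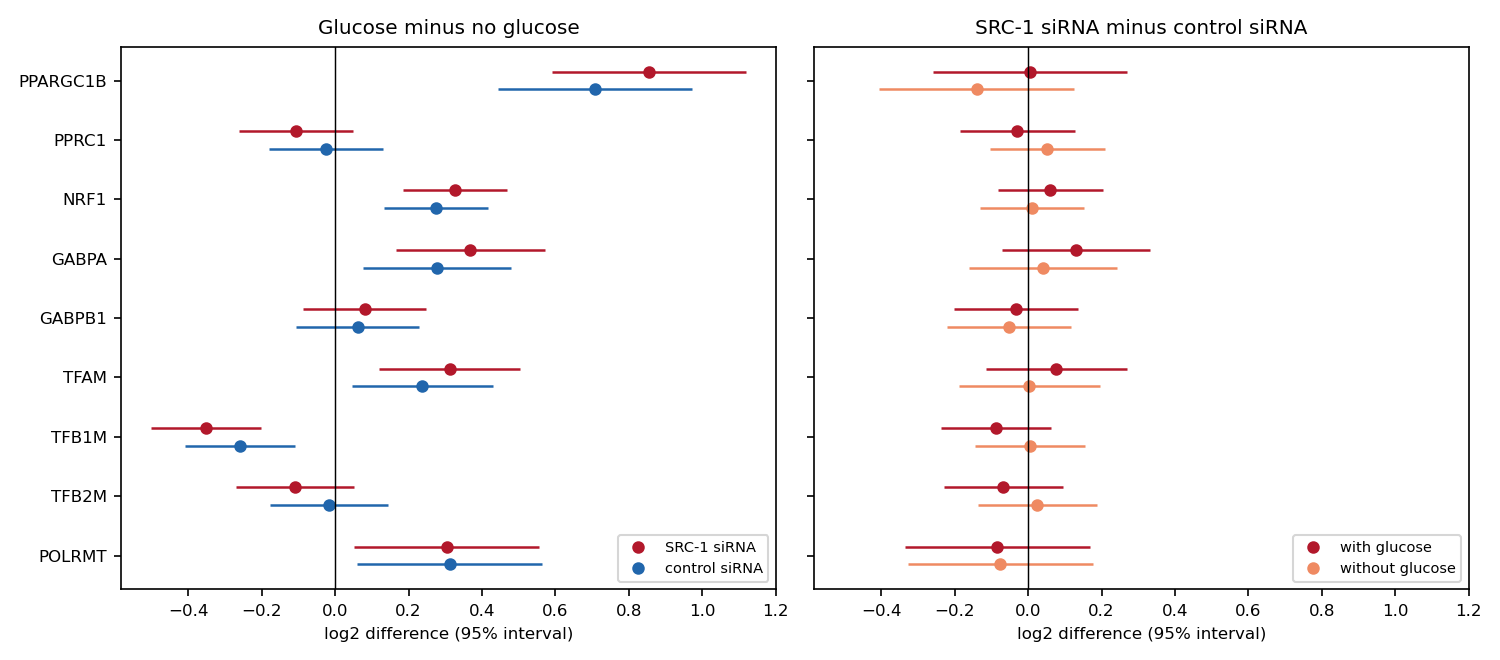
Log2 differences with 95% intervals for the 9 genes tested: left, glucose minus no glucose under SRC-1 siRNA and under control siRNA; right, SRC-1 siRNA minus control siRNA with and without glucose. Glucose differences of PPARGC1B, NRF1, GABPA, TFAM, POLRMT and TFB1M keep clear of 0 under both siRNAs, and every SRC-1 siRNA interval includes 0.

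The order of the 4 groups followed the medium in the genes called for glucose. NRF1, GABPA and TFAM were highest with SRC-1 siRNA and glucose, then with control siRNA and glucose, then with SRC-1 siRNA without glucose and lowest with control siRNA without glucose. The first 2 of these groups did not overlap in their 2 arrays each, while the 2 glucose-free groups overlapped. Between the siRNAs with glucose, 32.5% of all genes were apart at this size, 20.4% higher and 12.1% lower with SRC-1 siRNA, and without glucose 29.2% were. TFB1M ran the other way, highest with SRC-1 siRNA without glucose and lowest with SRC-1 siRNA and glucose, and its glucose-free groups overlapped while its groups with glucose did not. PPARGC1B and POLRMT overlapped between siRNAs in either medium and were apart between media. All neighbours in the order overlapped for PPRC1 and TFB2M. A permutation test of 2 arrays against 2 cannot go below 0.333, so groups apart at this size carry no test.

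For each tested gene the 2 genes of most alike profile over the 8 arrays were found by Euclidean distance after subtracting the gene's own mean. PPARGC1B lay nearest to MAML2 (distance 0.142) and PDGFD (0.146), where the median distance to all genes was 1.18. Distances picked as the smallest lie below the median by that choice, so the gap to the median is no test. NRF1 lay nearest to LDHA (0.0670), the gene of a lactate dehydrogenase subunit, and SLC5A6 (0.0694), with a median of 0.556 to all genes. TFAM lay nearest to NOP58 (0.0881) and U2AF2 (0.0911), and GABPA to WDR82 (0.0884) and SAP30 (0.0958). TFB1M lay nearest to CSTPP1 (0.0704) and RIOK3 (0.0716), and POLRMT to ZNF559 (0.159) and WWP2 (0.163). Of the genes not called for glucose, PPRC1 lay nearest to DBH and E2F4, GABPB1 to BID and ADCY4, and TFB2M to SNW1 and RSPRY1, at distances between 0.0494 and 0.0613. No gene of the set was among the nearest 2 of another, which says little when 2 are taken out of 13584 genes.

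The wider pathway was read from 4 lists of textbook membership. Among partners and modifiers of PGC-1, 7 of 33 tested genes were higher with glucose and 9 were lower, with a median of -0.036. Of all genes 29.5% were higher and 26.2% lower in this comparison, and 55.7% were called, so 16 of 33 is not above the share of all genes. LPIN1, a phosphatidate phosphatase that also acts as a coactivator, was higher by 1.09 ± 0.060 (adjusted p = 1.64e-06). It read 10.39 and 10.38 under SRC-1 siRNA and 10.25 and 10.39 under control siRNA with glucose, against 9.42 and 9.22 under SRC-1 siRNA and 9.21 and 9.21 under control siRNA without glucose. Of 4 tested subunits of AMP-activated protein kinase, an energy sensor that phosphorylates PGC-1alpha, the catalytic PRKAA2 was higher by 0.84 ± 0.086 and the regulatory PRKAG1 was lower, at -0.72 ± 0.053. The other 2 were named after their values were seen: the regulatory PRKAB1 was called lower, at -0.25 ± 0.063, and the catalytic PRKAA1 was not called, at -0.039 ± 0.095. KAT2A, an acetyltransferase of PGC-1alpha, was higher by 0.41 ± 0.052.

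Among genes of mitochondrial DNA replication and the nucleoid, 6 of 20 were higher with glucose and 7 were lower, with a median of -0.048. These counts lie near the 29.5% higher and 26.2% lower among all genes. LONP1, the protease that degrades TFAM, was lower, at -1.01 ± 0.042 (adjusted p = 4.27e-07). It read 8.79 and 8.80 under SRC-1 siRNA and 8.84 and 8.85 under control siRNA with glucose, against 9.80 and 9.82 under SRC-1 siRNA and 9.86 and 9.83 under control siRNA without glucose. The media stood apart by far more than any replicate difference. The nuclease and helicase DNA2 was higher by 1.41 ± 0.075, the exonuclease MGME1 by 0.56 ± 0.053 and the primase-polymerase PRIMPOL by 0.68 ± 0.067.

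Of the genes for mitochondrial RNA synthesis, processing and turnover, 17 of 31 were higher with glucose and 7 were lower, where 29.5% of all genes were higher and 26.2% lower. The median of the list was 0.21, against -0.00035 over all genes. FASTKD1, an RNA-binding protein of mitochondria, was higher by 1.46 ± 0.058 (adjusted p = 3.28e-07). MTERF2, of the mitochondrial transcription termination factor family, was higher by 1.28 ± 0.093. TRMT10C, a subunit of mitochondrial ribonuclease P, was higher by 0.68 ± 0.044, and PDE12, which removes poly(A) tails in the organelle, by 0.66 ± 0.053.

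The transcripts that this machinery makes were read from 7 of 15 listed genes of mitochondrial DNA, and the other 8 were not analysed here. With glucose 2 were higher, ND6 and ND2, both subunits of respiratory complex I, and 0 were lower, with a median of 0.23, where 29.5% of all genes were higher and 26.2% lower. ND6 read 7.93 and 8.56 under SRC-1 siRNA and 8.72 and 8.56 under control siRNA with glucose, against 7.12 and 6.98 under SRC-1 siRNA and 6.50 and 7.15 under control siRNA without glucose. All 4 arrays with glucose lay above the 4 without, and the difference was 1.502 ± 0.17, or 2.83-fold (adjusted p = 8.07e-05). ND2 was higher by 0.50 ± 0.13 (adjusted p = 0.0125), although its media overlapped, with 1 array at 11.251 with glucose against 11.279 and 11.258 in arrays without. The other 5 were not called. COX3 and ATP6 differed by 0.23 ± 0.14 and 0.24 ± 0.15, COX2 by 0.098 ± 0.089 and COX1 by 0.021 ± 0.18. ND4, a further complex I subunit, differed by -0.016 ± 0.14.

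In the 7 mitochondrially encoded transcripts the median glucose difference was -0.032 with SRC-1 siRNA and 0.40 with control siRNA. The interaction lay below 0 for all 7, between -0.62 and -0.33, and was called for none of them in limma (adjusted p = 0.999, unadjusted p between 0.0696 and 0.244). In 2 groups the first array lay below the second in each of these transcripts. The first minus the second was -0.74 to -0.37 with SRC-1 siRNA and glucose, and -0.65 to -0.23 with control siRNA without glucose. With SRC-1 siRNA without glucose the first array lay above the second in all 7, by 0.006 to 0.41. ND6 and ND2 were called with any 1 array left out, at 1.34 to 1.67 for ND6 and 0.36 to 0.63 for ND2. ATP6 was called higher without the first array of SRC-1 siRNA with glucose (0.38, adjusted p = 0.0440 in limma), and COX3 without the second glucose-free array of control siRNA (0.37, adjusted p = 0.0369). Without the first glucose-free array of control siRNA the interaction of the 7 transcripts lay between -0.39 and -0.068. It lay between -0.31 and -0.094 without the first array of SRC-1 siRNA with glucose. Leaving out the second array moved it the other way. It then lay between -0.95 and -0.44 for glucose-free control siRNA, and between -0.94 and -0.51 for SRC-1 siRNA with glucose. The 7 values come from the same extracts and are not independent. SRC-1 siRNA averaged over both media gave 0 calls in each of the 4 lists. The genes with the smallest p were HCFC1 (-0.13) and RNF34 (0.11) among PGC-1 partners, and TK2 (0.17) and TOP1MT (-0.10) in replication. In the RNA list they were TBRG4 (0.15) and DDX28 (0.072), and among mitochondrial transcripts ND4 (-0.13) and COX1 (-0.15). Their adjusted p values were 0.929 or higher, and HCFC1 alone of the 4 lists had an unadjusted p under 0.05 in limma.

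**Figure D5:**
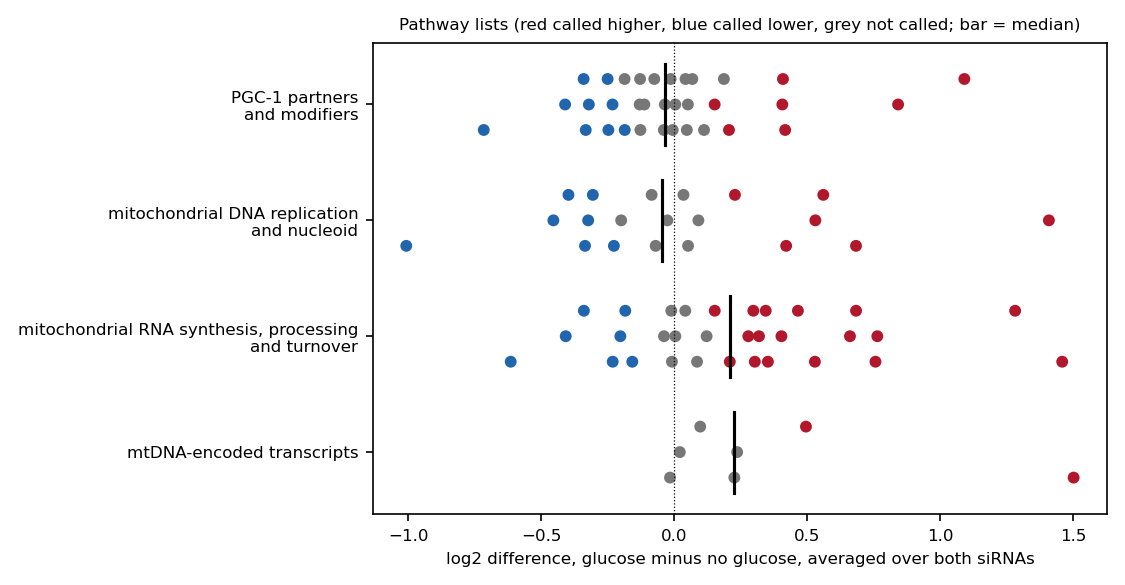
Log2 difference, glucose minus no glucose, averaged over both siRNAs, for each tested gene (points) of the 4 lists, with the list's median as a bar; vertical position within a list only spreads the points. The median of the RNA synthesis, processing and turnover list lies at 0.21, and the lists of PGC-1 partners and of DNA replication have medians of -0.036 and -0.048.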

How the data were processed

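The authors deposited 1 table of 54675 probe sets on 8 arrays, with values between 1.98 and 14.7 that were used as log2 signal. Base 2 was inferred from hybridization spikes, and array medians lay between 4.97 and 5.01. Background correction, probe summary and normalization are not given in the sources used here. Groups and replicate numbers came from the labels, so p-values reflect only the spread between arrays that the labels call biological replicates. Genes were named by the platform annotation (41091 probe sets with 1 gene). All 8 arrays entered 1 limma fit (limma 3.58.1, R 4.3.3) with a mean per group and 4 residual degrees of freedom, once on each gene's brightest probe set above the filter and once on all single-gene probe sets. Tests were two-sided with Benjamini-Hochberg adjustment over all features, and the fit was tested on simulated data. Deviations of same-numbered arrays from their group means correlated weakly between groups (-0.096 to 0.117). These correlations cannot tell whether the numbers mark shared cultures, and the main fit used no pairing. Members, pathway lists and tests were chosen with earlier results of these data known. Named by rule were all members, per list the 4 genes of smallest p for glucose and 2 for SRC-1 siRNA, and per member the 2 nearest profiles. Mitochondrial genes were named through RefSeq synonyms. Promoter windows came from RefSeq.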

Additional observations from a re-analysis of the deposited data

How the results depend on the processing

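The settings tried were no signal filter or one at the 60th percentile, quantile normalization, median centring of arrays, averaging a gene's probe sets, leaving out probe sets ending in _s_at or _x_at, a prior that follows mean signal, array weights, only the groups compared, a replicate block, 1.5-fold as a further threshold, and each array left out. The cause of each change below was not tested unless the setting shows it. Under the mean of the probe sets, GABPB1 turned to -0.52 averaged, -0.46 with SRC-1 siRNA and -0.58 with control siRNA, and NRF1 with control siRNA turned to -0.035. Past 1.5-fold, 1 gene of the set was left averaged and with either siRNA, and 3 probe sets averaged, 2 with SRC-1 siRNA and 3 with control siRNA. Of 16 PGC-1 partners, 13 replication, 24 RNA and 2 mitochondrial transcripts called, 3, 3, 7 and 1 were past it. Without _s_at and _x_at probe sets, which tests fewer genes, 3 genes of the set were called averaged, 3 with SRC-1 siRNA and 3 with control siRNA, with 7, 5 and 4 probe sets and 1 mitochondrial transcript. With no filter, 3 genes were called with control siRNA; at the 60th percentile, 9 probe sets averaged; and with the prior that follows signal, 13 with control siRNA. Leaving out 1 array gave 6 genes of the set averaged, 3 to 6 with SRC-1 siRNA and 2 to 6 with control siRNA. It gave 12 to 15 probe sets averaged, 3 to 12 with SRC-1 siRNA and 3 to 8 with control siRNA. Lists gave 14 to 17 PGC-1 partners, 13 to 14 replication, 21 to 24 RNA and 2 to 3 mitochondrial transcripts, and NCOA1 lay at -3.33 to -3.04 with glucose and -3.20 to -3.07 without. The counts of 0 for SRC-1 siRNA and the interaction were 0 under every alternative run. With the replicate block 6 genes of the set were called averaged, 5 with SRC-1 siRNA and 5 with control siRNA, where POLRMT had an adjusted p of 0.0646. Of 6 pairs of same-numbered arrays, 1 correlated above 0.1 (range -0.096 to 0.117). The fit of only the groups compared could not give averaged effects. Low signal limits PPARGC1A, and the number of arrays limits the interaction.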
